A study of Mus musculus with 47 samples.

Results

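Villi of p21-/- mice were compared directly with villi of Apc1638N/+ mice, both on the C57BL/6 strain, both 3 months old and both kept on the purified diet Ain76A. The comparison comprised 8 of the 47 arrays of the series, 4 of each genotype, taken by genotype, tissue, age and diet from the labels. Every probe set was considered, and each difference is given as the log2 level in p21-/- villi minus that in Apc1638N/+ villi, so that a positive value means a higher level without p21. The rest of the series holds wild-type villi and the crypts of all 3 genotypes at the same age, and crypts and villi of older wild-type mice on 3 diets. Neither group is a control for the other: the p21-/- mice lack p21 in every cell, the Apc1638N/+ mice carry 1 altered copy of Apc in every cell, and both are tumor-risk genotypes. The labels do not say how the altered alleles were bred into the strain, nor that the replicates came from separate animals, so the p-values measure the spread between these samples, which may be technical.

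The protein p21, encoded by Cdkn1a, binds and inhibits cyclin-dependent kinases and is a classical target of p53. Apc is the scaffold of the complex that marks beta-catenin for destruction, and its loss switches on the Wnt target genes that keep crypt cells dividing. Villi are the differentiated side of the epithelium, where enterocytes absorb nutrients and shed cells are replaced from the crypts below.

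The targeted gene separated the genotypes by 1 of its 2 probe sets. Cdkn1a probe set 1421679_a_at was blank on all 4 p21-/- villus arrays and measured on all 4 Apc1638N/+ arrays, at normalized log2 levels of 9.99, 11.16, 10.99 and 12.09. The other Cdkn1a probe set, 1424638_at, read 13.17, 13.39, 12.69 and 13.18 in p21-/- villi and 12.69, 12.85, 13.04 and 13.03 in Apc1638N/+ villi. The groups overlapped there, and the difference of 0.20 ± 0.25 (SE) did not pass the test. The part of the transcript each probe set detects was not analysed here.

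Apc did not separate the groups in this way. Its 2 probe sets that could be tested differed by -0.01 ± 0.20 (1420956_at) and -0.31 ± 0.24 (1435543_at). Neither passed the test.

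Of 13242 probe sets tested with limma, 8 differed at a Benjamini-Hochberg adjusted p under 0.05, which is 0.0604% of those tested. Of these, 4 were higher and 4 lower in p21-/- villi, each 0.0302% of those tested, with folds from 2.0 to 4.63. At an unadjusted p under 0.05 there were 1375 probe sets, 10.4% of those tested, 779 higher (5.88%) and 596 lower (4.5%). Zfp943, Unkl and 1810013L24Rik fell, Abca3, Tbl3 and Tmem129 rose, and the remaining probe sets, 1421134_at (lower) and 1417177_at (higher), have no symbol in the platform table used here. The fit took its spread from all 47 arrays: fitted on these 8 arrays alone, limma called 0, with 734 at an unadjusted p under 0.05 and a smallest adjusted p of 0.658. Leaving out each array in turn gave between 2 and 93 calls, with 44 without p21-/- array 1 and 93 without Apc1638N/+ array 3, 3 without p21-/- array 2, 5 without p21-/- array 3, and 2 without either p21-/- array 4 or Apc1638N/+ array 4. With array weights estimated in limma the count was 1387.

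Zfp943, a zinc-finger gene of a family with many similar members, gave the smallest p. Its level was 8.5, 9.29, 9.08 and 8.88 in p21-/- villi and 10.51, 10.25, 10.22 and 10.18 in Apc1638N/+ villi. The highest p21-/- array lay below the lowest Apc1638N/+ array. The difference was -1.35 ± 0.212 (SE, limma adjusted p = 0.001625), and it remained called without any single array. Wild-type villi lay between, at 9.79 ± 0.348 (SD, n = 4).

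Abca3 encodes a lipid transporter known for packing surfactant phospholipids in the lung. It read 11.15, 11.22, 10.85 and 10.91 in p21-/- villi and 9.55, 9.83, 9.99 and 9.35 in Apc1638N/+ villi, again without overlap. The rise was 1.35 ± 0.218 (limma adjusted p = 0.001844), and it too was called without any single array. Wild-type villi, at 9.56 ± 0.159 (SD, n = 4), stood near the Apc1638N/+ level. A dimmer Abca3 probe set, 1425496_at, was measured on all 4 p21-/- arrays, from 8.10 to 9.31, and on 1 Apc1638N/+ array, at 8.09.

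Tbl3 encodes a subunit of the complex that processes the precursor of ribosomal RNA. Its levels were 8.84, 9.02, 8.97 and 9.34 in p21-/- villi against 7.83, 7.77, 8.02 and 7.23 in Apc1638N/+ villi. The groups did not overlap, and the rise was 1.33 ± 0.236 (limma adjusted p = 0.006089). Here the wild type, at 8.68 ± 0.320 (SD, n = 4), was nearer to p21-/-. The call was lost without p21-/- array 4 and without Apc1638N/+ array 4, where the highest adjusted p was 0.125.

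Unkl, a relative of the RNA-binding zinc-finger protein Unkempt, read 8.66, 8.49, 8.41 and 8.10 in p21-/- villi and 9.71, 9.28, 9.52 and 9.87 in Apc1638N/+ villi. It fell by 1.18 ± 0.239 on the log2 scale (limma adjusted p = 0.0426), with no overlap. Wild-type villi averaged 9.63, close to the Apc1638N/+ mean of 9.59. The call held in 3 of 8 leave-outs and was lost in the other 5, each of which removed an array of p21-/- replicates 2 to 4 or of Apc1638N/+ replicates 1 or 4.

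Tmem129, a ubiquitin ligase of the endoplasmic reticulum, was the called gene that ran the other way in crypts. Villus levels were 9.25, 9.19, 9.56 and 8.96 in p21-/- and 8.07, 8.29, 7.82 and 8.26 in Apc1638N/+, a rise of 1.13 ± 0.234 (limma adjusted p = 0.0426). The crypt difference was -0.62 ± 0.270 (limma adjusted p = 0.279). The villus minus crypt difference of 1.75 ± 0.357 had the smallest adjusted p of that test, 0.176, and did not pass. In villi the call held in 2 of 8 leave-outs.

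1810013L24Rik, probe set 1435546_a_at, read 9.57, 9.49, 9.63 and 8.63 in p21-/- villi and 10.04, 10.49, 10.35 and 10.46 in Apc1638N/+ villi. The groups did not overlap, although p21-/- array 4 stood apart from its own group. The difference was -1.0 ± 0.210 (limma adjusted p = 0.0426). It was not shared by all probe sets of the gene: 1431018_at differed by -0.94, and 1434613_at by 0.03, while 1435546_a_at itself was called in 4 of 8 leave-outs and lost without p21-/- arrays 2 or 4 or Apc1638N/+ arrays 2 or 4.

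The unnamed probe sets rested on overlapping groups or on fewer arrays. Probe set 1421134_at had the largest called difference, -2.21 ± 0.461, but its groups overlapped, from 7.37 to 9.94 in p21-/- villi and from 9.69 to 12.2 in Apc1638N/+ villi. Probe set 1417177_at, at 1.40 ± 0.291, was measured on 3 arrays of each genotype. Over all 8 called probe sets, 7 had groups that did not overlap, against 3.96% of all those tested (2.33% higher and 1.62% lower in p21-/-).

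**Figure D1:**
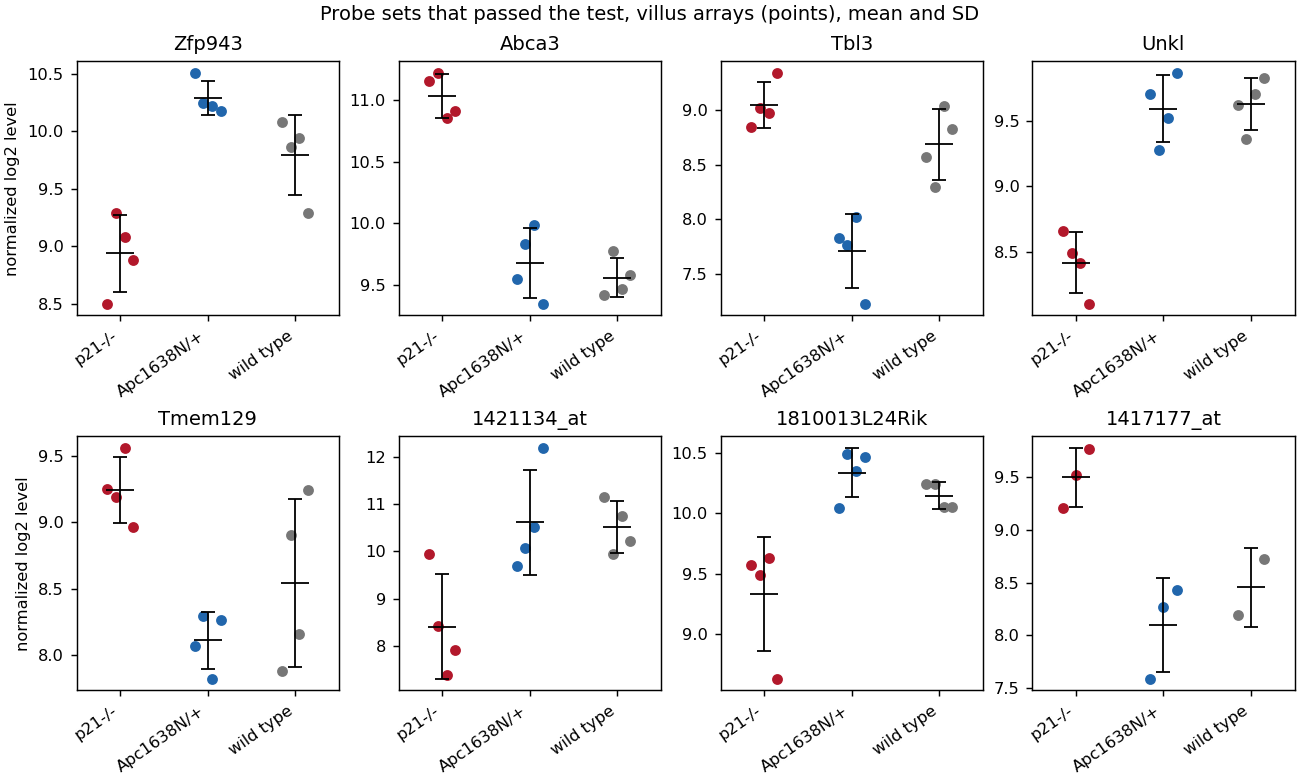
Normalized log2 level (vertical axis, a separate range for each panel) of the 8 probe sets that passed the test, in p21-/-, Apc1638N/+ and wild-type villi; points are arrays, the wide bar is the mean and the whiskers are 1 SD. Zfp943, Abca3, Tbl3 and Unkl separate the red p21-/- points from the blue Apc1638N/+ points without overlap, whereas those of 1421134_at overlap, and 1417177_at has 3 points in each of these groups.

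Of the 8 called probe sets, 4 lay in the same part of the genome. By the gene positions of RefSeq's GRCm38.p6, 6 of the 8 have a position and 4 of those, Zfp943, Abca3, Tbl3 and Unkl, lie on chromosome 17 within 10 Mb of Cdkn1a, all before it in the order of the assembly. That is 4 of 385 tested probe sets within 20 Mb of Cdkn1a (1.04%). Outside the chromosomes of Cdkn1a and Apc it was 2 of 10838 (0.0185%), those of Tmem129 and 1810013L24Rik. Within 20 Mb of Apc, 0 of 165 tested probe sets were called by limma and 5 had an unadjusted p under 0.05. These are counts of neighbouring genes, without a test.

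The neighbourhood also held more probe sets with small p-values. At an unadjusted p under 0.05, 61 of 296 within 10 Mb of Cdkn1a differed (20.6%), compared with 10.7% of all those with a position, 11.2% at 10 to 20 Mb, and 8.90% on the rest of the chromosome. On the side before Cdkn1a the share within 10 Mb was 25.0%, and after it 16.8%. Of the 61, 44 were higher and 17 lower in p21-/- villi. Fitted on the 8 arrays alone, when limma called 0 probe sets there, the shares were 15.2% within 10 Mb and 5.54% over all probe sets. Several genes of the neighbourhood have more than 1 probe set. With 1 probe set per gene the shares were 17.8% within 10 Mb and 11.2% over all those tested. The number called within 20 Mb ran from 2 (without p21-/- array 4 or Apc1638N/+ array 4) to 11 (without Apc1638N/+ array 3).

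**Figure D2:**
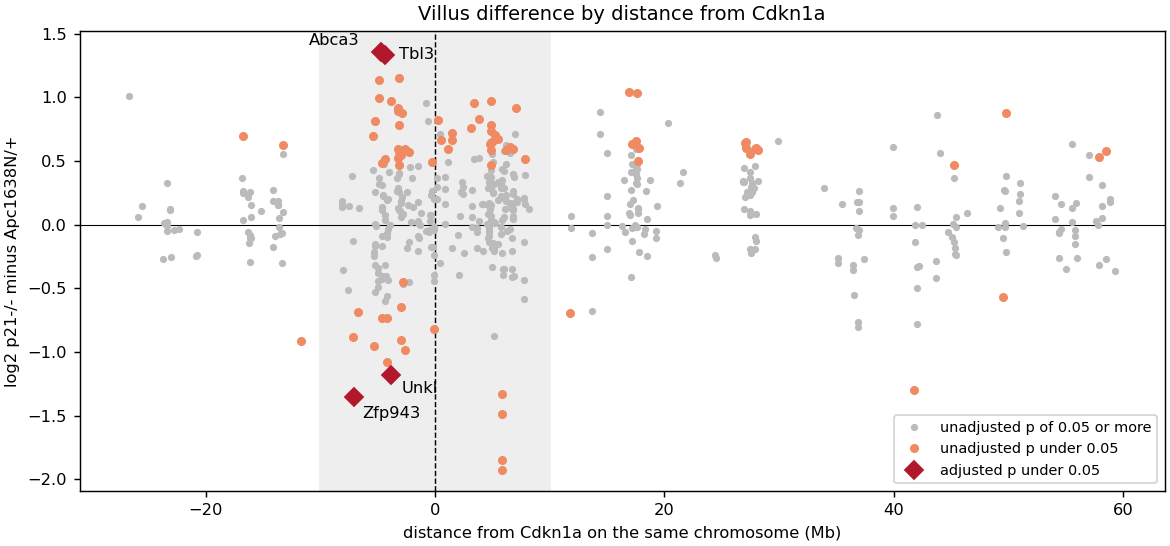
Log2 difference, p21-/- minus Apc1638N/+ villi (vertical axis), of each tested probe set on chromosome 17 against its distance from Cdkn1a in Mb (horizontal axis, 0 marked by the dashed line; the grey band is 10 Mb to each side). Dark red diamonds passed the test, orange points had an unadjusted p under 0.05; the 4 diamonds all lie to the left of Cdkn1a inside the band, where 25.0% of the probe sets had an unadjusted p under 0.05.

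Genes of that neighbourhood that did not pass went both ways. Tbc1d24, a regulator of vesicle traffic, came nearest, at 8.86, 9.08, 8.87 and 8.80 in p21-/- villi against 7.87, 8.21, 7.65 and 7.35 in Apc1638N/+ villi (difference 1.13 ± 0.243, limma adjusted p = 0.0588). A further Tbc1d24 probe set, 1442325_at, differed by 0.99 ± 0.309. Both lacked overlap between the groups. The remaining one, 1448028_at, differed by 0.37 ± 0.254 with overlap, and by -0.53 ± 0.254 in crypts.

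Both enzymes of the glyoxalase pathway, which detoxifies methylglyoxal, have genes in this window, and most of their probe sets differed in opposite directions. They were singled out after their values were seen. Glo1, the first enzyme, was higher in p21-/- villi by 0.66 ± 0.157 (1451240_a_at, limma adjusted p = 0.114) and by 0.72 ± 0.213 (1424108_at), with no overlap in either. The other tested Glo1 probe set, 1424109_a_at, ran the other way at -0.18 ± 0.196 and overlapped. Hagh, the second enzyme, differed by -1.08 ± 0.286 (1437519_x_at, limma adjusted p = 0.168), with overlap. There p21-/- array 2, at 10.99, lay above Apc1638N/+ array 3, at 10.80. Hagh probe set 1424172_at differed by -0.74 ± 0.228 without overlap, and the other one, 1424171_a_at, by -0.56 ± 0.317 with overlap. None of these passed the test over all probe sets.

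Pgap6, an enzyme that acts on lipid-anchored proteins, read 9.84, 9.66, 9.59 and 9.71 in p21-/- villi and 10.66, 10.47, 10.62 and 10.69 in Apc1638N/+ villi. The groups were tight and did not overlap, yet with the spread of all 47 arrays the difference of -0.91 ± 0.230 had a limma adjusted p of 0.158. In crypts it was -0.93 ± 0.249 (limma adjusted p = 0.0830). Wild-type villi, at 10.59, were like those of Apc1638N/+.

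The same genotype contrast was also read on the crypt arrays. The labels do not say whether crypts and villi came from the same animals, so the crypts may not be an independent replicate. There, limma called 27 of 11451 probe sets (0.236%), 15 higher and 12 lower in p21-/-. Of the 8 probe sets called in villi, 6 could be tested in crypts, 5 had the same sign and 2 were called there too: Zfp943, at -1.45 ± 0.212 (limma adjusted p = 0.0002764), and Tbl3, at 1.04 ± 0.236 (limma adjusted p = 0.0454). Zfp943 read 8.12, 8.60, 7.98 and 8.45 in p21-/- crypts and 9.91, 9.38, 9.67 and 10.01 in Apc1638N/+ crypts, without overlap. Tbl3 in crypts ran from 9.45 to 10.35 in p21-/- and from 8.41 to 9.40 in Apc1638N/+. Abca3 and Unkl were measured on too few crypt arrays to be tested.

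Near Cdkn1a small p-values were also more frequent in crypts than over all positions: 22.4% of the probe sets within 10 Mb had an unadjusted p under 0.05, against 15% of all those with a position. In villi these shares were 20.6% and 10.7%, and the excess was not tested between the tissues. A direct test of villi against crypts, the villus difference minus the crypt difference, called 0 of 10942 probe sets in limma. There were 532 at an unadjusted p under 0.05, or 4.86%. No gene was therefore shown to differ between the genotypes in 1 compartment more than in the other.

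No array measure passed the exact permutation test after adjustment over the 10 measures tested. With 4 arrays against 4, a single measure could not pass this adjustment, so cell composition was not shown to be alike. The enterocyte markers, of which 6 of 7 could be used, averaged 15.35 ± 0.318 (SD, n = 4) in p21-/- villi and 14.98 ± 0.107 in Apc1638N/+ villi (two-sided exact permutation p = 0.0857, adjusted over the measures 0.214). Lct, Alpi, Anpep, Fabp2, Apoa4 and Vil1 were each measured on all 8 arrays. Top2a, the only usable marker of dividing crypt cells, differed by -1.42 (exact permutation p = 0.0571, adjusted 0.214). The 2 usable Paneth cell markers differed by -0.94 (exact permutation p = 0.0857, adjusted 0.214). Goblet, enteroendocrine, lymphocyte and myeloid markers had exact permutation p from 0.543 to 0.857. A crypt-villus score, the mean of 372 crypt-higher minus 302 villus-higher probe sets, lay between -2.40 and -1.13 on the villus arrays and between 1.02 and 2.24 on the crypt arrays. It averaged -1.88 ± 0.375 in p21-/- villi and -1.54 ± 0.347 in Apc1638N/+ villi (exact permutation p = 0.257). The smallest p that 4 against 4 allows is 0.0286, reached by Jchain alone, the only usable plasma cell marker, at 9.25 to 10.02 in p21-/- villi and 10.46 to 11.58 in Apc1638N/+ villi (adjusted 0.214). Stroma, red cell, tuft and acinar markers were blank on too many arrays to be compared, and measured probe sets numbered 17749 to 21115 per array. Apc1638N/+ array 3 and p21-/- array 1 correlated less with their own group, at a mean r of 0.872 and 0.899, than with the other genotype, at 0.891 and 0.918. Apc1638N/+ array 1 did so by a smaller margin, at 0.929 against 0.932. The log2 level of the actin control probe set at the 3′ end minus that at the 5′ end was also highest in its group for Apc1638N/+ array 3 and p21-/- array 1, at 1.99 and 2.39, against 1.45 to 1.76 and 0.97 to 1.74 on the other arrays. The part of RNA quality in the results was not tested.

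The 41 gene lists of intestinal functions and cell types held 487 tested genes, of which limma called 0 and 46 had an unadjusted p under 0.05 (9.45%), so what follows describes direction and size only. Beside each median stands that of all 13242 probe sets tested, which was 0.01, with 6820 higher and 6422 lower. In whole villi, a lower level cannot be told apart from fewer cells of the type that holds the message. With array weights 38 list members were called, and without Apc1638N/+ array 3 there were 2.

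The immediate early genes, transcription factors and phosphatases induced within minutes of a stimulus, gave the lowest median among the lists with at least 5 tested members. All 21 tested of the 25 listed were lower in p21-/- villi, with a median of -0.59, and 5 had an unadjusted p under 0.05. The median lay between -0.79 and -0.36 when single arrays were left out, weakest without p21-/- array 3, and 3 members were then higher without that array or without Apc1638N/+ array 3. It was -0.61 with the deposited scaling, again with 21 of 21 lower. It was -0.64 when that score of crypt against villus content entered the fit as a covariate. The margin to the list of stem cells and Wnt targets was narrow, at -0.593 against -0.588. With the deposited scaling that list had the lower median, at -0.66.

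Klf6, a zinc-finger transcription factor, read 11.63, 11.91, 10.70 and 11.34 in p21-/- villi against 12.45, 12.09, 12.52 and 12.95 in Apc1638N/+ villi. It was the only one of the 5 without overlap, with a difference of -1.11 ± 0.287 (limma adjusted p = 0.162), and all 4 further Klf6 probe sets had a lower mean in p21-/- villi too. Egr1, a growth-factor-induced transcription factor, read 12.69, 11.92, 11.57 and 12.26 against 13.48, 12.60, 12.83 and 13.25, and p21-/- array 1 lay above the lowest Apc1638N/+ array. The Egr1 difference was -0.93 ± 0.324 (limma adjusted p = 0.312).

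Dusp1, a phosphatase that switches off stress kinases, read 13.33, 12.47, 11.89 and 12.15 in p21-/- villi and 13.39, 13.01, 14.48 and 12.91 in Apc1638N/+ villi, overlapping through p21-/- array 1. Nr4a1, an orphan nuclear receptor, differed by -1.03 ± 0.470 and Klf2, a further zinc-finger factor, by -0.85 ± 0.418. In Dusp1 and Nr4a1 the highest Apc1638N/+ value and the lowest p21-/- value both came from array 3 of the group. The first known members of the class had differences near their errors, -0.44 ± 0.319 for Fos, -0.41 ± 0.397 for Jun and -0.14 ± 0.526 for Junb. In crypts the differences were smaller or of the other sign, -0.30 for Klf6, -0.02 for Dusp1 and 0.34 for Nr4a1, and none of these differences between the tissues passed the test.

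A related nuclear receptor, Nr4a2, was among the 10 smallest p-values of the lower probe sets. Its probe set 1455034_at read 10.08, 8.64, 8.11 and 9.17 in p21-/- villi and 11.07, 10.09, 11.61 and 10.28 in Apc1638N/+ villi. The groups just failed to touch, and the difference was -1.76 ± 0.427 (limma adjusted p = 0.122). The brighter Nr4a2 probe set that stands for the gene in the list, 1447863_s_at, differed by -0.72 ± 0.468.

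Heat shock genes and chaperones were lower too, 14 of the 15 tested, with a median of -0.45 and 5 members at an unadjusted p under 0.05. The median ranged from -0.53 to -0.25 over the leave-outs, weakest without Apc1638N/+ array 1 (-0.25) and p21-/- array 1 (-0.27), and was -0.43 with the deposited scaling and -0.24 when the score of crypt against villus content was a covariate. The genes of this class are switched on by heat shock factor, which binds repeats of GAA and TTC. The promoters below are shown because they carry that motif upstream of the members with the smallest p-values. Each is the 150 bases before the start of the gene in RefSeq's GRCm38.p6, 5′ to 3′ on the strand of the gene, with GAANNTTC in capitals: Hspa1a at chr17:34972157-34972306 (minus strand) and Dnaja1 at chr4:40722318-40722467 (plus strand).
Hspa1a: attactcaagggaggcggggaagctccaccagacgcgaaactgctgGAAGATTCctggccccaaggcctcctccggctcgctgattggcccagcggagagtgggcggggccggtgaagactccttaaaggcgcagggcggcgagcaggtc
Dnaja1: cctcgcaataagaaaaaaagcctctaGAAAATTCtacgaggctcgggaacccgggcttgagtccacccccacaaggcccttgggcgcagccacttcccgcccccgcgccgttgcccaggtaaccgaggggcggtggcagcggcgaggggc

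The motif reads the same on both strands and was searched on its own. It was present in the 150-base window of 6 of the 13 tested list members with a promoter in the table, namely Dnaja1, Hspa1a, Hspa1b, Hspb1, Hspd1 and Hspe1, and in 4.63% of all 27025 genes (3.95% of all 32851 promoters). A match is a description of these letters and not a measured binding site. The Hspb1 and Hspe1 differences were -0.08 ± 0.411 and -0.55 ± 0.325, so that members with the motif ranged from -1.93 to -0.08. Tested members outside these 6, with or without a promoter in the table, ranged from -0.87 (Hsph1) to 0.23 (Hspa4l). Hsph1 and Hsp90aa1, both at an unadjusted p under 0.05, were among them. The members were listed as heat shock genes, so the share with the motif says nothing of the genotypes.

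Hspa1a, the inducible 70-kilodalton chaperone, had the largest difference in the list. It read 9.95, 10.04, 11.62 and 9.23 in p21-/- villi and 12.81, 12.42, 11.09 and 12.22 in Apc1638N/+ villi. The groups overlapped through array 3 of each genotype, and the difference was -1.93 ± 0.533 (limma adjusted p = 0.193). Wild-type villi, at 9.40 ± 1.02 (SD, n = 4), were below both genotypes. Its near-identical neighbour Hspa1b, whose promoter window matches that of Hspa1a at 149 of 150 bases, differed by -1.85 ± 0.539, and the probe sets may not tell the 2 genes apart. Both lie within 10 Mb of Cdkn1a, on the side after it.

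Dnaja1, a co-chaperone of the same machine on another chromosome, read 12.65, 12.86, 13.48 and 12.42 in p21-/- villi and 13.41, 13.90, 13.03 and 13.78 in Apc1638N/+ villi, a difference of -0.68 ± 0.210 (limma adjusted p = 0.248). Hsp90aa1, the inducible HSP90, differed by -0.53 ± 0.252 and Hsph1, a nucleotide exchange factor for HSP70, by -0.87 ± 0.415. In crypts these differences had the same sign, -1.26 for Hspa1a, -0.58 for Dnaja1, -0.52 for Hsp90aa1 and -0.75 for Hsph1. None passed the test in either compartment.

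**Figure D3:**
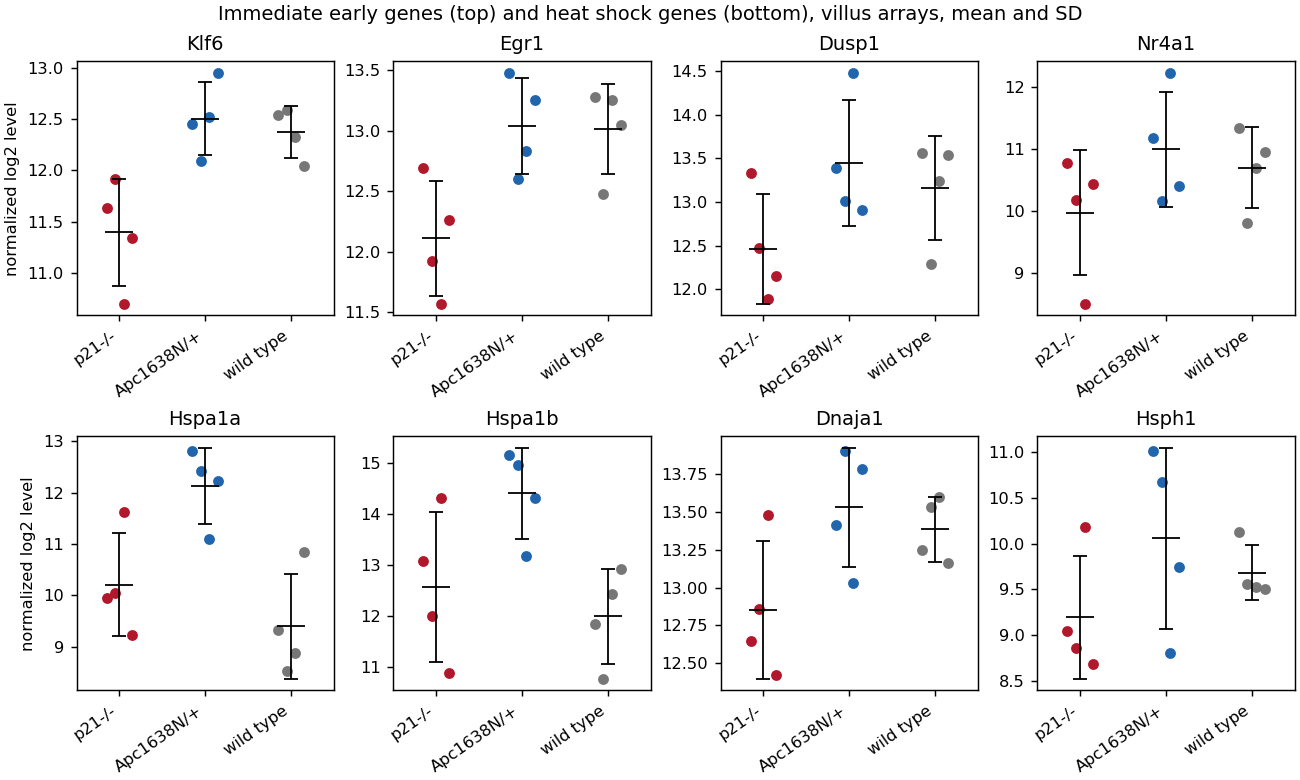
Normalized log2 level (vertical axis, a separate range for each panel) of 4 immediate early genes (top) and 4 heat shock genes (bottom) in p21-/-, Apc1638N/+ and wild-type villi; points are arrays, the wide bar is the mean and the whiskers are 1 SD. Klf6 has no overlap between p21-/- and Apc1638N/+, while the heat shock genes overlap through array 3 of a genotype, and Hspa1a is lowest in the wild type (mean 9.40).

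At the other end stood lists of digestion and absorption, though not the genes of microvillus structure. Of 17 tested genes of microvillus structure, 9 were higher and 8 lower in p21-/- villi, with a median of 0.06. Brush border enzymes, which finish digestion at the surface of the enterocyte, were higher in p21-/- villi for 12 of 12 tested, with a median of 0.58 (0.44 to 0.66 over the leave-outs, 0.58 with the deposited scaling, 0.38 with the covariate). When the crypt-villus score was that covariate, 10 of 12 were higher. In the main fit none of the 12 had an unadjusted p under 0.05. Treh, the enzyme that splits trehalose, had no overlap, at 13.99, 14.56, 13.71 and 14.63 in p21-/- villi and 13.58, 13.21, 13.59 and 12.88 in Apc1638N/+ villi, and differed by 0.91 ± 0.462 (limma adjusted p = 0.488). Anpep, an aminopeptidase, differed by 1.32 ± 0.738, with p21-/- arrays from 11.74 to 15.22.

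Transporters and lipid absorption pointed the same way with smaller medians. Of 16 tested nutrient transporters 15 were higher, with a median of 0.40 (0.24 without Apc1638N/+ array 3 and 0.25 without p21-/- array 4), led by the folate transporter Slc46a1 at 0.96 ± 0.559. With the covariate the transporter median was 0.18, with 14 of 16 higher. The exception was the iron exporter Slc40a1 at -0.92 ± 0.842, which ran from 10.68 to 15.08 within the Apc1638N/+ group. Of 20 genes of lipid absorption 18 were higher (16 with the deposited scaling), with a median of 0.26 (0.44 without p21-/- array 1, 0.18 without p21-/- array 2), which became 0.10 with 13 of 20 higher when the crypt-villus score was a covariate.

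Mogat2, which re-forms fat inside the enterocyte, had the smallest p of the lipid list. It read 12.74, 13.60, 13.81 and 13.63 in p21-/- villi and 12.78, 13.13, 12.11 and 12.59 in Apc1638N/+ villi, with overlap through p21-/- array 1, and differed by 0.79 ± 0.299 (limma adjusted p = 0.356). Dgat1, the final enzyme of triglyceride synthesis, was higher without overlap by 0.44 ± 0.229.

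Zinc handling gave a median of 0.51, with 10 of 10 tested genes higher, or 9 of 10 with the deposited scaling, and the median was 0.32 without Apc1638N/+ array 3. The metallothionein Mt1 differed by 0.78 ± 0.414 and the zinc importer Slc39a5 by 0.78 ± 0.405. Of the cell junction genes 12 of 15 were higher, with a median of 0.15 (0.09 without Apc1638N/+ array 3 or p21-/- array 2, 0.32 without Apc1638N/+ array 4), and 3 had an unadjusted p under 0.05: Cldn3 at 0.65 ± 0.235, Cldn15 at 0.64 ± 0.261, both claudins of the tight junction, and the scaffold Tjp3 at 0.68 ± 0.300. Each of these 3 overlapped between the groups.

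Genes of the dividing crypt were lower in p21-/- villi. All 9 tested genes of mitosis were lower, with a median of -0.53 (-0.80 to -0.41 over the leave-outs). Top2a, a topoisomerase of dividing cells, read 7.68, 6.79, 7.65 and 9.11 in p21-/- villi against 9.26, 9.26, 9.54 and 8.87 in Apc1638N/+ villi, overlapping through p21-/- array 4, and differed by -1.42 ± 0.394 (limma adjusted p = 0.193). In crypts, where its level was between 10.79 and 12.24, the Top2a difference was 0.29 ± 0.393. Of 23 genes listed for mitosis only these 9 were measured on enough villus arrays.

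Stem cell genes and Wnt targets were also lower in p21-/- than in Apc1638N/+ villi. Only 7 of the 20 listed could be tested, and which genotype departed from the wild type was not tested for this list. Of the 7 tested, 7 were lower, with a median of -0.59 (-0.64 to -0.17 over the leave-outs). It was -0.17 without Apc1638N/+ array 3, -0.23 without p21-/- array 3 and -0.26 without p21-/- array 1, each with 2 or 3 members higher. Cd44, a Wnt target on crypt cells, read 9.08, 7.97, 7.56 and 8.24 in p21-/- villi and 8.21, 9.76, 9.35 and 9.26 in Apc1638N/+ villi (-0.93 ± 0.294, limma adjusted p = 0.265), overlapping through Apc1638N/+ array 1. Olfm4, a stem cell marker, differed by -1.51 ± 0.565 with 3 p21-/- arrays measured. The Wnt feedback genes Axin2, Sp5 and Rnf43 differed by -0.09 ± 0.390, -0.04 ± 0.288 and -0.01 ± 0.352. The crypt-villus score was lower in p21-/- villi as given above, and its part in these lists was not tested beyond the covariate fit, where the mitosis and stem cell medians were -0.41 and -0.35.

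Paneth cell genes, which mark the base of the crypt, had a median of -0.32, with 5 of 7 lower, and -0.03 without Apc1638N/+ array 4, -0.20 without p21-/- array 2 and -0.53 without p21-/- array 1. Lyz1, the Paneth lysozyme, read 12.07, 11.11, 12.40 and 12.76 in p21-/- villi and 13.67, 12.79, 13.00 and 12.90 in Apc1638N/+ villi, without overlap (-1.01 ± 0.407, limma adjusted p = 0.387). Itln1, an intelectin, differed by -1.35 ± 0.591. Both had the opposite sign in crypts, 0.44 and 1.33.

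Among the components of the Wnt pathway itself 9 of 11 were lower, with a median of -0.06 that became 0.04 without Apc1638N/+ array 4 and -0.27 to -0.12 without each of the other arrays. Csnk1a1, the kinase that primes beta-catenin for destruction, read 12.73, 12.61, 12.75 and 12.35 in p21-/- villi and 13.30, 13.41, 12.90 and 13.53 in Apc1638N/+ villi. The groups did not overlap, and the difference was -0.67 ± 0.199 (limma adjusted p = 0.204). The other Csnk1a1 probe sets differed by -0.43 ± 0.221 (1428537_at), -0.09 ± 0.258 (1437923_at) and 0.13 ± 0.303 (1430529_at), each with overlap. Ctnnb1, beta-catenin, differed by -0.34 ± 0.158.

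The brakes on the cell cycle and the cyclins of its first phase went both ways, with 5 of 14 tested genes higher and a median of -0.11, or 0.08 without Apc1638N/+ array 3. Cdkn1a, the disrupted gene itself, is among the 5, through probe set 1424638_at at 0.20, whose groups overlapped, while 1421679_a_at was blank on all 4 p21-/- arrays. Cdkn2c, the inhibitor p18, was higher in p21-/- villi without overlap, at 9.20, 8.88, 8.84 and 8.62 against 8.32, 8.23 and 7.98 on the 3 Apc1638N/+ arrays that measured it (0.71 ± 0.231, limma adjusted p = 0.265). Cdkn1b, the related inhibitor p27, was lower by -0.79 ± 0.407. Cdk2, a kinase that p21 inhibits, differed by -0.68 ± 0.268, and Ccne2, its cyclin partner, by -0.89 ± 0.388.

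Of 10 tested p53 targets 7 were lower, with a median of -0.37. The 3 counted as higher again include Cdkn1a, the disrupted gene, through probe set 1424638_at. Pmaip1, a trigger of apoptosis, read 11.02, 10.94, 10.85 and 10.49 in p21-/- villi and 12.07, 11.97, 11.24 and 12.31 in Apc1638N/+ villi. It had no overlap and differed by -1.07 ± 0.323 (limma adjusted p = 0.221). Trp53inp1 and Gadd45a, further stress-induced targets, differed by -0.85 ± 0.343 and -0.53 ± 0.242.

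DNA replication genes were split. Of 13 tested 9 were lower, among them the helicase subunits Mcm5 at -0.90 ± 0.352, with no overlap (its other probe set, 1415945_at, at -0.20 ± 0.411), and Mcm4 at -0.85 ± 0.410. The helicase subunit Mcm2 was measured by probe sets that disagreed. Probe set 1434079_s_at was higher, at 9.07, 10.04, 10.75 and 9.80 in p21-/- villi and 9.25, 8.16 and 8.47 on 3 Apc1638N/+ arrays (1.29 ± 0.347, limma adjusted p = 0.178). Its groups overlapped through p21-/- array 1. Probe set 1448777_at, measured on all 8 arrays, differed by -0.02 ± 0.402.

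Among the immune lists, the lymphocyte, myeloid, MHC class II and interferon response medians changed sign when single arrays were left out. Those of the B and plasma cell and MHC class I lists did not. Only 3 of the 12 B and plasma cell genes could be tested, and 3 of 3 were lower in p21-/- villi, with a median of -0.79. It was -0.51 without p21-/- array 1 and -0.41 with array weights. Jchain, which joins secreted antibodies, had the widest difference of the 3, at -1.29 ± 0.628 with no overlap (limma adjusted p = 0.475), while Igha, the heavy chain of IgA, differed by -0.79 ± 0.601 and Xbp1, a plasma cell transcription factor, by -0.02 ± 0.155. Lymphocyte genes were lower for 14 of 15 tested, with a median of -0.23, but the median was 0.21 without Apc1638N/+ array 3, -0.01 without p21-/- array 3, -0.10 without p21-/- array 2, and -0.65 to -0.37 without each of the other arrays. Ptprc, the pan-leukocyte antigen CD45, read 13.44, 11.23, 11.15 and 12.46 in p21-/- villi and 12.72, 12.21, 13.74 and 12.35 in Apc1638N/+ villi, with p21-/- array 1 and Apc1638N/+ array 3 highest in their groups. Of 11 MHC class I genes 8 were higher in p21-/- villi, with a median of 0.25 (0.15 without Apc1638N/+ array 4, 0.39 without Apc1638N/+ array 3), led by H2-D1 at 0.59 ± 0.252 and H2-K1 at 0.47 ± 0.218. These MHC genes belong to a family of similar sequence on chromosome 17, and the probe sets may not tell its members apart. Cdkn1a lies on the same chromosome. Within 10 Mb after it, 22 probe sets were higher and 4 lower in p21-/- villi at an unadjusted limma p under 0.05. The part of position in the MHC class I median was not tested.

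**Figure D4:**
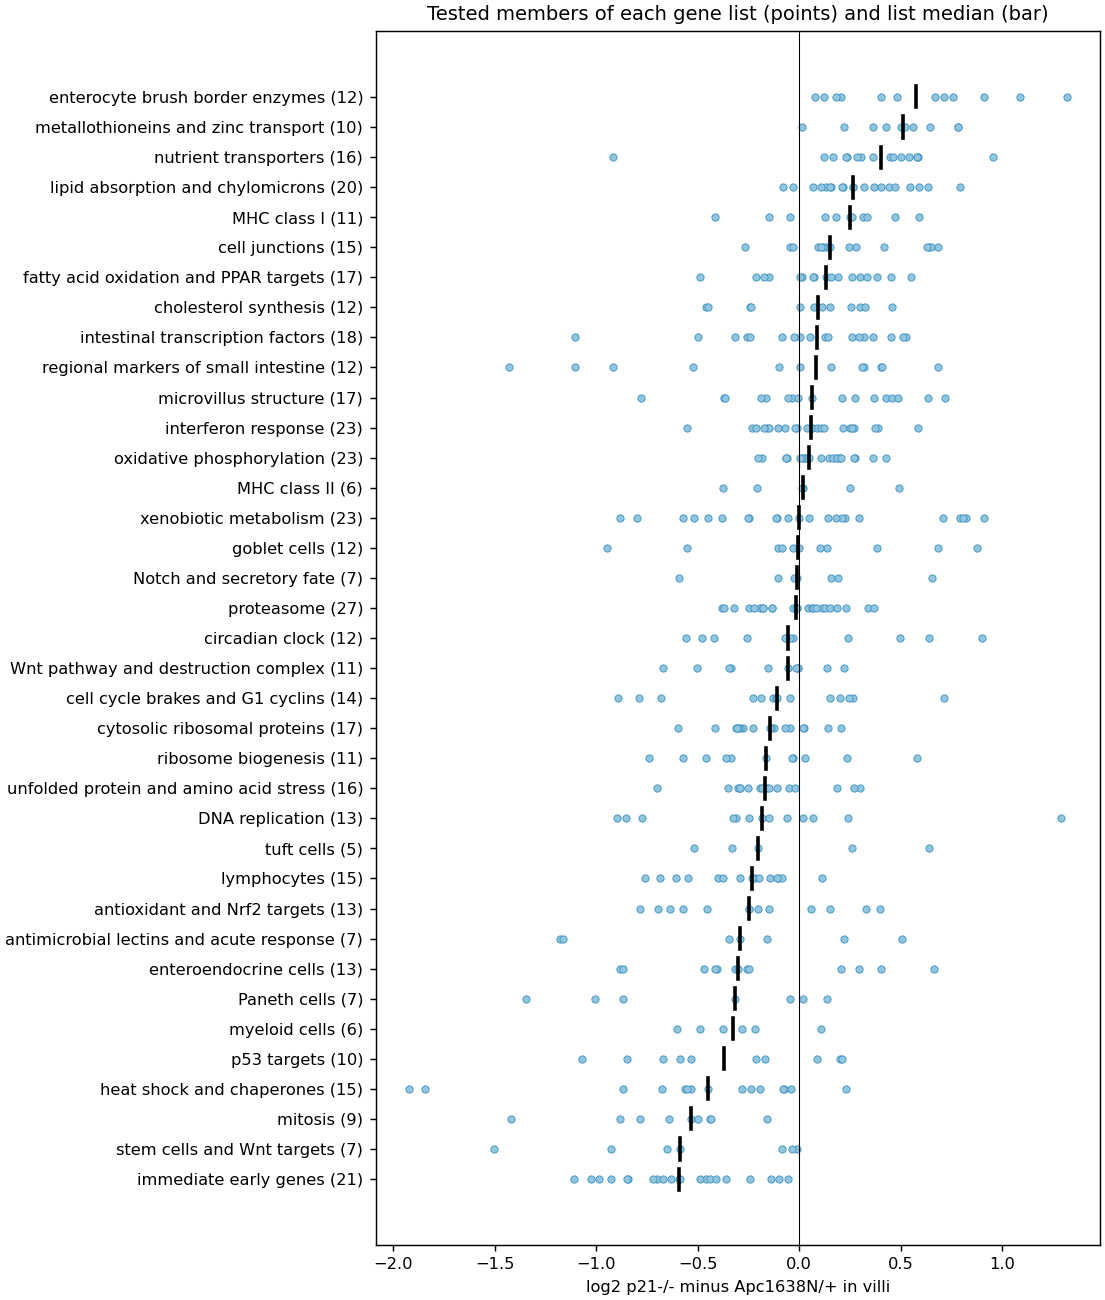
Log2 difference, p21-/- minus Apc1638N/+ villi (horizontal axis), of each tested member (points) of the gene lists with at least 5 tested members, with the list median as a black bar and the number tested in brackets. Brush border enzymes are highest (median 0.58) and immediate early genes lowest (median -0.59), and 0 of the members shown passed the test.

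Some probe sets were measured in 1 genotype and blank in the other, so that no fold could be formed. In all, 27 were measured on the 4 Apc1638N/+ arrays and blank on the 4 p21-/- arrays, and 16 were the reverse. Cdkn1a 1421679_a_at was the brightest of the 27, at a mean of 11.06, and the other 26 lay below the median level of 9.21. In the reverse direction Hip1r, an adaptor of clathrin-coated pits, at 10.63 and Ddr1, a collagen receptor, at 10.25 were brightest. Further probe sets of both genes were measured on all 8 arrays, with differences of 0.35 and 0.28 for Hip1r and of 0.61, 0.56 and 0.17 for Ddr1. Eme2, a subunit of a DNA repair nuclease, at 7.46 in Apc1638N/+ villi, and Ddr1 and Prss41, a serine protease, in p21-/- villi lie within 20 Mb of Cdkn1a. Of the 16, 13 lay below that median level, and the total of 43 became 68 to 142 when single arrays were left out.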

How the data were processed

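Messenger RNA was labelled as biotinylated cRNA and hybridized to Affymetrix arrays, per the labels' protocols. The deposited values are log2 expression, 1 per probe set and array, made by the authors with GCOS per the submitters' processing notes; the GCOS version is not given in the sources used. Of all values 55.2% were blank, for a reason not stated in any label or header, and blanks were left blank. Values were quantile-normalized on the 8350 non-control probe sets measured on every array, because trimmed means differed by up to 1.46 times, and the rest were interpolated. The number of arrays limits the precision, which the SE gives.

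A probe set was tested when measured on at least 3 arrays of each genotype and above its array's median on at least 3 of 47. limma 3.58.1 in R 4.3.3 fitted all 12 groups, with the prior variance following the mean level, and Benjamini-Hochberg adjustment ran over all probe sets tested (adjusted p under 0.05). On simulated data with 13242 probe sets, this fit recovered 60% of differences of 1 log2 and 98% of differences of 2 log2. Of the 184 probe sets it called there, 12 (6.52%) were false. The simulated noise was independent with the same spread on every array, and 200 probe sets were changed. The real arrays were of unequal weight, so these shares may not hold for them. Array measures were compared by two-sided exact permutation over 70 regroupings, with adjustment over the measures tested.

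Of 45101 probe sets, 34958 carry 1 gene symbol, 932 several and 9211 none in the platform table, which can be old. Named genes are the called ones, the smallest p-values up to 10 per direction, up to 4 members of each list by p, Cdkn1a and Apc, and the brightest probe sets measured in 1 genotype only. Further members of a list, Glo1 and Hagh were named after their values were seen. A list gene stands by its brightest probe set over all arrays. The members and lists were chosen with earlier results of these data known. Alternatives covered scaling, filters, model, blanks, the replicate block and each array left out. Leaving out 2 arrays together was chosen after seeing the data.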

Additional observations from a re-analysis of the deposited data

Results flagged for a closer look

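Of 147 groups of 4 arrays examined for a single array far from the others, 7 exceeded Dixon's critical value, where chance gives about 1 in 20. In p21-/- villi, the gap divided by the range was 0.856 for 1810013L24Rik (array 4, at 8.63), 0.928 for Hagh probe set 1424172_at (array 1, at 10.39), 0.899 for Mad2l1, a mitotic checkpoint gene (array 1, at 8.41, only 0.21 above the next array), 0.845 for Ccne2 (array 4, at 6.58) and 0.876 for Junb (array 3, at 10.69). In Apc1638N/+ villi it was 0.944 for Cdkn1b (array 1, at 10.54) and 0.835 for the mean of the lymphocyte markers (array 3, at 14.34).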

How the results depend on the processing

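The count of 8 called probe sets was 5 with the deposited scaling, 5 with 1 probe set per gene, 0 when fitted on the 8 arrays only, 1387 with array weights (from 0.179 for Apc1638N/+ array 3 to 1.85 for p21-/- array 2), 3 with the replicate number as a block, and 38 without Apc1638N/+ array 3 and p21-/- array 1 together. It was 2 to 93 with single arrays left out. Without the filter on low values it was 10, and with blanks set to a floor 6, of which 2 were shared. The 4 calls near Cdkn1a became 0 on the 8 arrays only and 72 with array weights, and 2 to 11 with single arrays left out. The 0 called members of gene lists became 38 with array weights and 0 to 2 with single arrays left out. The 43 probe sets measured in 1 genotype only became 68 to 142, and the 0 calls of the tissue difference 0 to 1. The cause of these shifts was not tested.

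Replicate numbers did not pair the arrays: deviations of same-numbered arrays correlated at -0.385, 0.120, -0.559 and -0.194. The 3 calls with the block were among the 8. Of 142 alternative values of the 8 called probe sets, 44 lost the call and 0 changed direction. Alternatives in which a probe set could not be tested are not among the 142. Probe set 1417177_at could be tested in 11 of 19, with 2 of 8 leave-outs, and 1421134_at and 1810013L24Rik in 18 each. Of 722 alternative medians of the 38 gene lists, 14 moved by more than 1 SD between arrays, and 69, in 17 lists, changed sign. Blanks made up 55.2% of all values, and probe sets measured on fewer than 3 arrays of a genotype could not be tested.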
